A study of Mus musculus with 28 samples.

Results

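Dux, Zfp352 and the Zscan4 genes were followed in the RNA-seq libraries of naive mouse embryonic stem cells (mESC). The members were taken by symbol, and all 6 of them (Dux, Zfp352, Zscan4b, Zscan4c, Zscan4d and Zscan4f) were found among the 37991 genes of the count tables and passed the filter on low counts that left 20321 genes for testing. The WT cells were J1 mESC, a line of the 129S4/SvJae strain. All cells were kept in 2i and LIF, which hold them in the naive state. They were of wild-type (WT) genotype, lacked Dnmt1, Dnmt3a and Dnmt3b (DNMT TKO), or lacked Tet1, Tet2 and Tet3 (TET TKO), and every library came from cells carrying a lentiviral vector, selected with puromycin and collected at day 5. The vector was empty (shEmpty) or expressed a hairpin against Kap1 (shKap1). There were 3 libraries for each hairpin in WT and in DNMT TKO and 2 for each hairpin in TET TKO. Each genotype was represented by a single cell line, so that the genotype cannot be told apart from other properties of its line. The paper states that the DNMT TKO and TET TKO cells came from different laboratories, and it names no line or strain for them. The genotypes may thus differ in background.

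Dux is a double homeobox transcription factor made briefly at the 2-cell stage, when the embryonic genome is first transcribed, and it activates a set of genes together with the endogenous retrovirus MERVL and its long terminal repeat (LTR) MT2_Mm. Zscan4 proteins carry a SCAN domain and zinc fingers, are active at the same stage and are known for their part in telomere maintenance. Zfp352 is a zinc finger gene of the same stage. In cultures of mESC a few cells at a time express these genes and are called 2-cell-like cells. KAP1, encoded by Trim28, is the corepressor that zinc finger proteins bring to retroelements, where it recruits SETDB1 and the mark H3K9me3. Since the libraries were made from whole cultures, a larger number of 2-cell-like cells and more RNA per cell cannot be told apart in any value below.

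The members differ in how many reads can be assigned to them at all, which is why their sequences are shown first. Only reads that mapped to a single place were counted by the authors. Dux (ENSMUSG00000058537) lies at chr10:57685047-57688454 on the minus strand of mm9, in an array of related copies of which Gm10807, 4933403O03Rik and Gm4981 are in the count tables. Zfp352 (ENSMUSG00000070902) lies alone at chr4:89885511-89892393 on the plus strand. The Zscan4 genes lie within 1 cluster on chromosome 7. Zscan4b (ENSMUSG00000091643) is at chr7:11486098-11490399 on the minus strand, Zscan4c (ENSMUSG00000054272) at chr7:11591071-11595896 on the plus strand, Zscan4d (ENSMUSG00000090714) at chr7:11746992-11751497 on the minus strand and Zscan4f (ENSMUSG00000070828) at chr7:11983264-11988090 on the plus strand.

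One coding exon of 160 bases has the same length in the 4 Zscan4 genes and shows how alike the copies are. The sequences are of the mm9 genome, written 5′ to 3′ on the strand of the gene, and capitals mark the 4 positions at which the copies differ. The intervals are chr7:11487213-11487372 for Zscan4b, chr7:11594116-11594275 for Zscan4c, chr7:11748340-11748499 for Zscan4d and chr7:11986309-11986468 for Zscan4f.
Zscan4b: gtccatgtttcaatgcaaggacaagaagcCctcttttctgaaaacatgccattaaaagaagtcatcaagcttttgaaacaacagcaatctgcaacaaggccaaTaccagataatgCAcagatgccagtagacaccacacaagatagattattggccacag
Zscan4c: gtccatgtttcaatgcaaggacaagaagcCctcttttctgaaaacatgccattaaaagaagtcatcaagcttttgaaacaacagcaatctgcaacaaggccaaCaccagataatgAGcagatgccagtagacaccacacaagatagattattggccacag
Zscan4d: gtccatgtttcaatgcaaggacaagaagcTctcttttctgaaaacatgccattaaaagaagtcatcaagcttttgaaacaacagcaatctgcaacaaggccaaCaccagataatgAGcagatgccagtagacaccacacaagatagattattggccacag
Zscan4f: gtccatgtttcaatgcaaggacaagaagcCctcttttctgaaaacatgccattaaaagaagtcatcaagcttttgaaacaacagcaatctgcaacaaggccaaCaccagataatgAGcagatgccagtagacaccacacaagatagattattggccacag
Zscan4c and Zscan4f were identical over this exon, Zscan4d differed from both at 1 base, and Zscan4b differed from Zscan4d at 4 bases. A 100-base read, the length sequenced here, that falls inside this exon therefore cannot be placed between Zscan4c and Zscan4f. Over all annotated exons, 6.36% of the 1935 possible start positions of a 100-base stretch in Zscan4f occurred once in the genome, against 17.4% in Zscan4b, 29.6% in Zscan4c and 72.5% in Zscan4d. For Dux the share was 63.1%, with stretches that occurred up to 5 times in mm9, and for Zfp352 it was 99.3%. These shares count exact matches on either strand and leave out reads across splice junctions. Inside exons, 123 such positions were left for Zscan4f and 2115 for Zfp352, and reads across junctions may add to both.

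**Figure D1:**
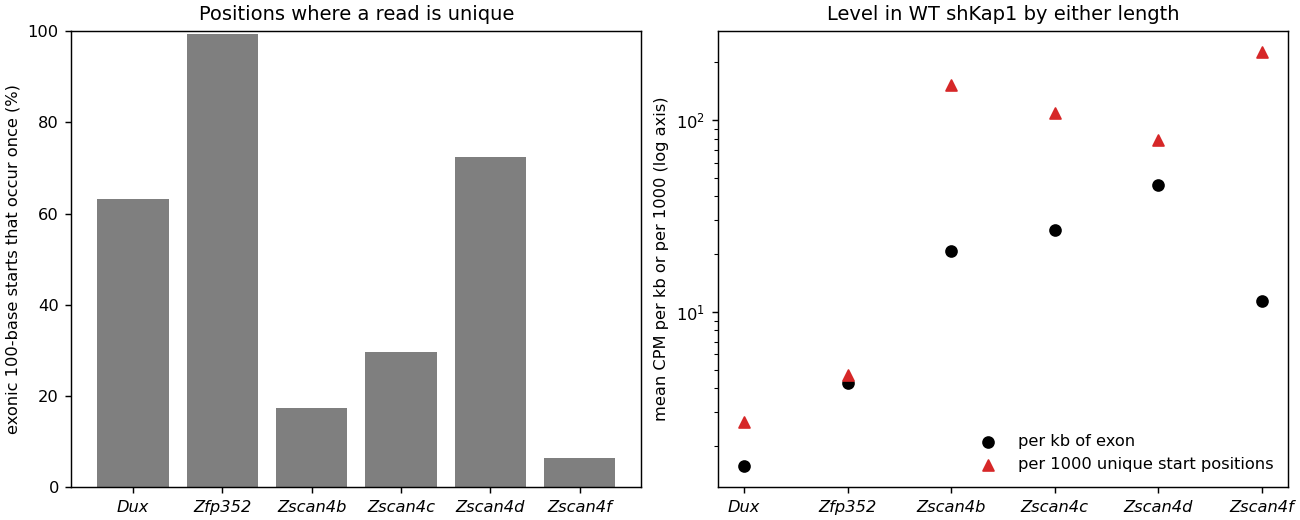
Left, the share of exonic 100-base start positions of each member that occur once in the mm9 genome (percent). Right, the mean level of each member in the 3 WT shKap1 libraries on a log axis, per kb of exon (black circles) or per 1000 start positions that occur once (red triangles); Zscan4f has the lowest share, 6.36%, and is the highest member by the second measure.

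The start of Zfp352 is of interest because it lies in an LTR. The annotated first exon, 156 bases long, lay entirely inside an MT2B element of 668 bases at chr4:89885097-89885764, and MT2B is an older LTR of the same ERVL class as MT2_Mm. The 300 bases that begin 50 bases before the annotated start, at chr4:89885461-89885760 on the plus strand of mm9, are all of the element and are printed in capitals for that reason.
Zfp352: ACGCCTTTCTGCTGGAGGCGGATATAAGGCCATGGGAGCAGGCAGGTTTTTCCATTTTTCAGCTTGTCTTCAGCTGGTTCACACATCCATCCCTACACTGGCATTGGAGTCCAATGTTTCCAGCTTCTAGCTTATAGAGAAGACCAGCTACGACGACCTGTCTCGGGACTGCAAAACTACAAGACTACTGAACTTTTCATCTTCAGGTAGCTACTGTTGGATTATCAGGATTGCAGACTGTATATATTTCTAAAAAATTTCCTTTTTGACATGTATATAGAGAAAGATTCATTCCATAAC
Reads counted over this element on its own strand rose with those of the gene: summed over the libraries of a group there were 3 in WT shEmpty and 29 in WT shKap1, and 1 in TET TKO shEmpty and 98 in TET TKO shKap1. These reads are not independent of the gene's count.

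The promoter windows of the Zscan4 genes were also close copies. RefSeq lists a window of 300 bases around the start for each of the 4 genes in GRCm38.p6, and aligned without gaps the pairs were 95.3% identical (Zscan4b and Zscan4c) to 99.3% identical (Zscan4c and Zscan4f). The window of Zscan4d, the member with the most reads, is chr7:11166099-11166398 on the minus strand of GRCm38.p6. It is shown with the letters TATAAA, searched on both strands, in capitals.
Zscan4d: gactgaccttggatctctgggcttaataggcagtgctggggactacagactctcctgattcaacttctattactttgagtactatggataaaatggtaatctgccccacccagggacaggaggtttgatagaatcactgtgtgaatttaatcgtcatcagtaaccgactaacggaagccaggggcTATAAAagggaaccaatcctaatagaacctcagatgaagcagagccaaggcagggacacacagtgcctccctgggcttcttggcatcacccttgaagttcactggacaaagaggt
The letters TATAAA occurred in the windows of all 4 Zscan4 genes and not in that of Zfp352, and 13.6% of 32851 RefSeq promoter windows of the same length held them. The letters GATTNAATC, a core of the motif known for mouse Dux that reads the same on both strands, occurred in none of these 5 windows and in 0.268% of all promoter windows. In mm9 they occurred in 879 of 1115 solitary MT2_Mm elements on the assembled chromosomes (78.8%), against 0.448% of windows of the same lengths shifted downstream by 5 kb. Of 14789 solitary MT2B elements 0.169% held these letters, against 0.189% of shifted windows. The MT2B element at the start of Zfp352 and a MERVL_2A-int element near Dux did not hold them. The longer form, with a T before and an A after these letters, searched in the same way, occurred in none of the 1115 elements, in none of the 5 promoter windows and in 0.0335% of all promoter windows, so that the matches rest on the shorter form. A match of letters is not a bound site, and an absent match in a window of this size says nothing about the factor. A solitary MT2_Mm of 487 bases lies 2784 bases from Zscan4b, beyond its 3′ end and so not at its promoter. The stretch of it at chr7:11482958-11483257, minus strand of mm9, is shown with GATTNAATC in capitals.
MT2_Mm: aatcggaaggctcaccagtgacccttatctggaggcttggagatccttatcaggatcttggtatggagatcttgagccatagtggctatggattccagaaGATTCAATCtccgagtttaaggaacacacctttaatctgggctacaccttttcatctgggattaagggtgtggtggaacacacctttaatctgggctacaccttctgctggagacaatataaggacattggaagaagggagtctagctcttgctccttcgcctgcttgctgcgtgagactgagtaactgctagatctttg

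The 16 libraries held 18108431 to 29373696 reads in genes, and levels are given as CPM, the reads of a feature per 1000000 gene reads of its library after TMM scaling. Trim28, the target of the hairpin, fell in the shKap1 libraries of each genotype. Its log2 fold change was -3.41 ± 0.16 (SE) in WT, -2.13 ± 0.15 in DNMT TKO and -3.47 ± 0.20 in TET TKO, with adjusted p-values of 2.21e-09, 2.58e-07 and 3.63e-08 in edgeR's quasi-likelihood test. The fall was smaller in DNMT TKO than in WT by 1.28 ± 0.21 (adjusted p = 0.000805), whereas in TET TKO and WT it differed by -0.06 ± 0.23 (adjusted p = 0.928). Of 7 mESC markers, 6 were in the tables and were above 1 CPM in every library. Their summed level was 3396 to 3678 CPM over the shEmpty libraries and 2154 to 2687 CPM over the shKap1 libraries. The markers fell unevenly. In WT, Sox2 went from a mean of 329 to 130 CPM and Klf4 from 326 to 130 CPM, while Pou5f1 had 838 and 773 CPM. In DNMT TKO, Zfp42 went from 654 to 228 CPM. In TET TKO, Pou5f1 had 788 CPM in shEmpty and 834 CPM in shKap1, and the other markers were lower with the hairpin. The summed level of 5 primitive endoderm markers was 9.33 to 11.1 CPM in shEmpty and 13.5 to 15.4 CPM in shKap1 in WT, 5.79 to 8.90 and 10.4 to 12.8 CPM in DNMT TKO and 12.3 to 14.1 and 14.8 to 14.9 CPM in TET TKO. Its members did not move alike: the means of Gata4 and Sox17 were higher with the hairpin in each genotype, those of Sox7 and Gata6 were lower in WT (2.38 and 0.475 CPM, 0.582 and 0.476 CPM) and in TET TKO (0.885 and 0.457 CPM, 0.995 and 0.586 CPM), and that of Pdgfra was lower in TET TKO as well, at 2.46 CPM with the hairpin. The sum of 5 trophoblast markers was 4.39 to 5.52 and 11.9 to 21.7 CPM in WT, 7.01 to 9.09 and 6.21 to 8.36 CPM in DNMT TKO and 4.88 to 5.22 and 8.61 to 9.19 CPM in TET TKO. In WT, Ascl2 went from a mean of 1.25 to 6.96 CPM and Krt7 from 2.08 to 6.46 CPM, while Cdx2, at 1.49 and 1.41 CPM, Hand1, at 0.0473 and 0.340 CPM, and Elf5, at 0.228 and 0.0175 CPM, stayed under 2 CPM in the mean. In DNMT TKO, Cdx2 had a mean of 5.83 CPM in shEmpty and 1.05 CPM in shKap1, and Ascl2 of 1.09 and 4.54 CPM. The sum of 6 fibroblast markers was 2.84 to 4.32 CPM in DNMT TKO shEmpty, higher in each DNMT TKO shKap1 library, where it reached 7.90 CPM, and 1.68 to 4.21 CPM in the other groups. The higher sum was that of Col1a1, with means of 2.70 and 5.76 CPM in DNMT TKO, while Col1a2 had 0.813 and 0.827 CPM and the other 4 at most 0.143 CPM there. Whether cells of these other types were present, and any part of them in the results below, was not tested.

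All 6 members rose on Kap1 knockdown in each of the 3 genotypes. Of all genes tested, 10.8% were called higher in WT, 10.1% in DNMT TKO and 8.05% in TET TKO, where a call needs an adjusted p below 0.05 and at least a 2-fold change. In no genotype did the shKap1 libraries overlap the shEmpty libraries for any member. Of all genes tested, 26.9% in WT, 24.6% in DNMT TKO and 33.6% in TET TKO were separated in this direction. The folds ran from 4.95 for Zscan4d in DNMT TKO to 128 for Zscan4b in TET TKO, and the lowest shKap1 library was at least 2.64 times the highest shEmpty library of its genotype (Zscan4f in DNMT TKO).

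**Figure D2:**
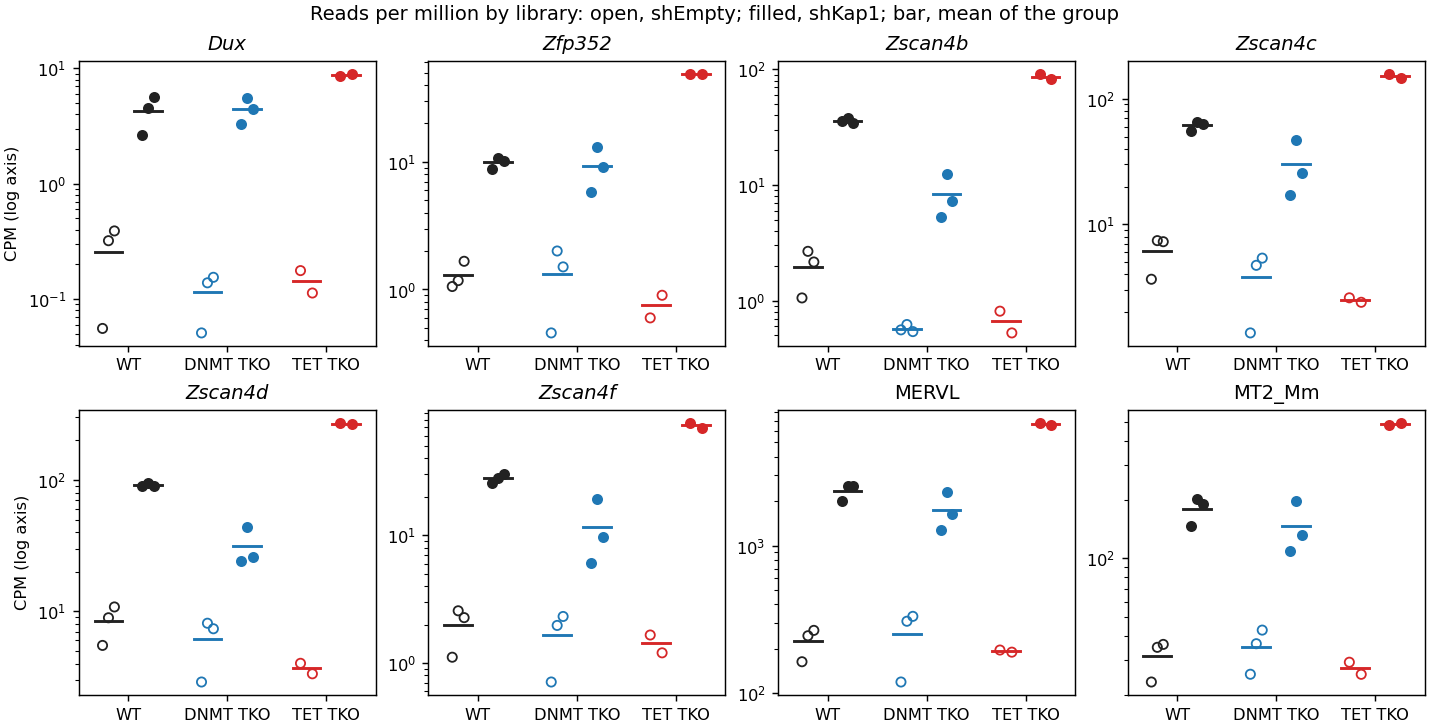
Level of each member, of MERVL and of solitary MT2_Mm in each library (CPM, log axis), by genotype; open circles are shEmpty, filled circles shKap1 and bars group means (3 libraries per group in WT and DNMT TKO, 2 in TET TKO). Filled circles lie above the open circles of the same genotype in every panel, and the TET TKO shKap1 libraries are the highest of all 16 in every panel.

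Dux, the transcription factor of the group, was barely detected in the shEmpty libraries. The reads in WT shEmpty were 1, 9 and 11, those in DNMT TKO shEmpty 1, 4 and 4 and those in TET TKO shEmpty 5 and 3. With the Kap1 hairpin there were 50, 104 and 105 reads in WT, 69, 118 and 119 in DNMT TKO and 185 and 174 in TET TKO. Every shKap1 library was thus far above every shEmpty library, and the levels of WT and DNMT TKO shKap1 lay in the same range. In CPM the WT level rose from 0.255 ± 0.176 (SD, n = 3) to 4.24 ± 1.51 (n = 3), that of DNMT TKO from 0.114 ± 0.056 (n = 3) to 4.43 ± 1.12 (n = 3) and that of TET TKO from 0.144 ± 0.045 (n = 2) to 8.75 ± 0.26 (n = 2). The log2 fold changes were 3.90 ± 0.38 (SE), 5.14 ± 0.43 and 5.86 ± 0.48, with adjusted p-values of 1.81e-07, 7.74e-08 and 6.46e-08. The 3 other copies of the array in the tables were called higher in each genotype too. Of these, Gm10807 had log2 fold changes of 4.01 ± 0.30, 5.32 ± 0.37 and 6.43 ± 0.41 in WT, DNMT TKO and TET TKO. Reads that match several copies equally well were left out by the unique-mapping rule, and a sum over the copies does not recover them. The summed reads of the 4 genes, a value added after the data were seen, changed by 4.13 ± 0.31, 5.19 ± 0.35 and 6.26 ± 0.42.

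Zfp352, for which 99.3% of read positions occur once in the genome, can be read without the limit that holds for the copies. WT shEmpty libraries had 1.06, 1.17 and 1.66 CPM and WT shKap1 libraries 8.81, 10.7 and 10.2 CPM. In DNMT TKO the values were 0.457, 2.00 and 1.50 CPM with the empty vector and 5.76, 13.0 and 9.16 CPM with the hairpin. In TET TKO they were 0.599 and 0.901 CPM and then 48.6 and 48.7 CPM. WT and DNMT TKO overlapped under either hairpin, and TET TKO shKap1 stood above both. The changes were 7.49-fold in WT (log2 2.90 ± 0.35, adjusted p = 9.74e-06), 6.70-fold in DNMT TKO (2.74 ± 0.35, adjusted p = 2.79e-05) and 64.7-fold in TET TKO (6.02 ± 0.45, adjusted p = 1.83e-07).

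The 4 Zscan4 genes rose together. Zscan4d, the copy with the most reads, had 5.50, 8.93 and 10.8 CPM in WT shEmpty and 89.5, 94.6 and 89.8 CPM in WT shKap1. In DNMT TKO it had 2.89, 8.11 and 7.36 CPM and then 24.2, 44.1 and 25.8 CPM, and in TET TKO 4.02 and 3.34 CPM and then 271 and 267 CPM. The shKap1 levels of the 3 genotypes did not overlap for this gene, with DNMT TKO lowest and TET TKO highest. Its log2 fold changes were 3.41 ± 0.32 in WT, 2.31 ± 0.33 in DNMT TKO and 6.19 ± 0.44 in TET TKO, with adjusted p-values of 3.83e-06, 0.000215 and 8.49e-07.

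Zscan4c followed the same order. It went from 3.67, 7.43 and 7.29 CPM to 55.4, 65.7 and 63.2 CPM in WT, from 1.37, 4.73 and 5.40 CPM to 17.2, 47.0 and 25.8 CPM in DNMT TKO and from 2.61 and 2.40 CPM to 157 and 147 CPM in TET TKO. These were changes of 9.74-fold, 7.52-fold and 60.6-fold (adjusted p = 5.56e-05, 0.000364 and 1.36e-05). Zscan4f, with few unique positions, went from 1.11, 2.56 and 2.26 CPM to 25.6, 27.7 and 30.1 CPM in WT, from 0.711, 1.97 and 2.31 CPM to 6.10, 19.1 and 9.64 CPM in DNMT TKO and from 1.66 and 1.20 CPM to 75.1 and 69.3 CPM in TET TKO. For both genes each TET TKO shKap1 library was above all WT shKap1 libraries, which were in turn above all DNMT TKO shKap1 libraries. The changes of Zscan4f were 13.5-fold, 6.69-fold and 50.2-fold (adjusted p = 1.14e-05, 0.000384 and 5.92e-06).

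Zscan4b differed between genotypes already with the empty vector. It had 1.06, 2.67 and 2.16 CPM in WT shEmpty, 0.559, 0.621 and 0.540 CPM in DNMT TKO shEmpty and 0.811 and 0.526 CPM in TET TKO shEmpty, so that all WT values lay above those of both mutants. With the Kap1 hairpin it had 35.8, 37.8 and 34.5 CPM in WT, 5.28, 12.4 and 7.27 CPM in DNMT TKO and 91.1 and 82.2 CPM in TET TKO. The changes were 17.6-fold, 14.3-fold and 128-fold (log2 4.14 ± 0.28, 3.84 ± 0.37 and 7.00 ± 0.40, adjusted p = 3.59e-08, 2.39e-06 and 1.68e-08). Zscan4b took 4.47% of the reads of the 4 genes in DNMT TKO shEmpty and 16.6% in WT shKap1, and Zscan4d between 38.5% and 50.3% in every group.

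The summed reads of the 4 genes rose 11.5-fold in WT, 6.51-fold in DNMT TKO and 69.9-fold in TET TKO (log2 3.53 ± 0.40, 2.70 ± 0.40 and 6.13 ± 0.55, adjusted p = 2.63e-05, 0.000361 and 9.21e-06). Zscan4e and the pseudogene Zscan4-ps2 of the same cluster were called higher in each genotype as well, by 5.89-fold (Zscan4e in DNMT TKO) to 85.1-fold (Zscan4e in TET TKO). In the replicate 1 libraries of WT and DNMT TKO most members were lower than in the other libraries of the group. Without these 4 libraries, an alternative added after the data were seen, the calls of all 6 members on knockdown were kept in all 3 genotypes.

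**Figure D3:**
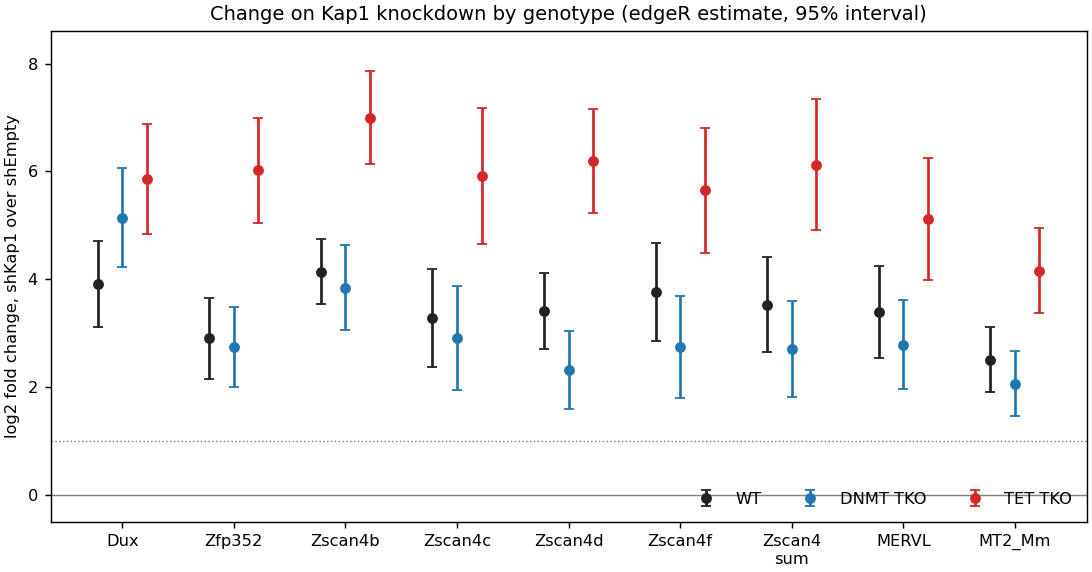
log2 fold change of shKap1 over shEmpty for each member, the summed Zscan4 genes, MERVL and solitary MT2_Mm, with approximate 95% intervals calculated back from the edgeR test. Black is WT, blue DNMT TKO and red TET TKO, and the dotted line marks the 2-fold threshold. All intervals lie above the dotted line, and the red points, from 4.16 for MT2_Mm to 7.00 for Zscan4b, are the highest for every feature.

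Whether the response to knockdown differed between the TET TKO and WT lines was tested as the difference between their log2 fold changes. It was called for 4 of the 6 members, all with the larger rise in TET TKO, and for 4.2% of all genes in either direction. The difference was 3.11 ± 0.60 for Zfp352 (adjusted p = 0.00432), 2.86 ± 0.52 for Zscan4b (adjusted p = 0.00335) and 2.78 ± 0.52 for Zscan4d (adjusted p = 0.00636), a further 8.64, 7.28 and 6.86 times the fold of WT. These 3 calls were kept whichever library was left out. For Zscan4c the difference of 2.64 ± 0.69 had an adjusted p of 0.0377 and lost its call when any of 11 single libraries was left out (adjusted p = 0.0502 to 0.137), that is for all but DNMT TKO shEmpty replicates 1 and 3, DNMT TKO shKap1 replicates 1 and 2 and WT shEmpty replicate 1. It was also lost with no filter on low counts (2.62, adjusted p = 0.0581).

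Zscan4f and Dux showed the same direction without passing the threshold. For Zscan4f the difference was 1.90 (95% interval 0.39 to 3.40, adjusted p = 0.112), and it was called without DNMT TKO shKap1 replicate 1 (adjusted p = 0.0477) or replicate 2 (adjusted p = 0.0256) and when only the groups of the contrast were fitted (1.91, adjusted p = 0.00190). For Dux it was 1.96 (interval 0.38 to 3.54, adjusted p = 0.114), and it was called without WT shEmpty replicate 1 (adjusted p = 0.0457), the WT library with 1 read of Dux, and with the replicate 1 libraries of WT and DNMT TKO left out (2.05, adjusted p = 0.00480). The summed reads of the Dux array differed by 2.13 ± 0.59 (adjusted p = 0.0327) and those of the 4 Zscan4 genes by 2.60 ± 0.62 (adjusted p = 0.0252). Of the genes in the array sum, Gm10807 passed by itself (adjusted p = 0.0193), while 4933403O03Rik (0.438), Gm4981 (0.562) and Dux did not. The Zscan4 sum missed the threshold without any 1 of 7 libraries (TET TKO shEmpty replicate 1 or 2, TET TKO shKap1 replicate 1 or 2, WT shEmpty replicate 2 or 3, or WT shKap1 replicate 3), with adjusted p-values of 0.0509 to 0.109. Part of each difference lay in the empty-vector libraries, where TET TKO was the lower for every member in the mean, and part in the shKap1 libraries, where for example Zfp352 had a mean of 48.7 CPM in TET TKO and 9.91 CPM in WT.

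The same test for DNMT TKO against WT called none of the 6 members, while 7.14% of all genes were called. At an unadjusted p below 0.05 only Zscan4d differed, with a smaller rise in DNMT TKO (-1.10, 95% interval -2.10 to -0.10, adjusted p = 0.127). It was called without DNMT TKO shEmpty replicate 1 (adjusted p = 0.0207) or DNMT TKO shKap1 replicate 2 (adjusted p = 0.0243), and without the latter Zscan4f was called too (-1.60, adjusted p = 0.0284). Dux pointed the other way, at 1.24 (interval -0.26 to 2.74, adjusted p = 0.264). The intervals of Zfp352 (-1.26 to 0.93), Zscan4b (-1.47 to 0.87), Zscan4c (-1.71 to 0.96) and Zscan4f (-2.38 to 0.35) covered 0 and changes of more than 2-fold. The smaller fall of Trim28 in DNMT TKO stood beside all of these values, and its part in them was not tested.

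With the empty vector, a difference between genotypes passed the test for 1 member only. Against WT shEmpty, 1 member was called in DNMT TKO, where 16.3% of all genes were called in either direction, and 1 in TET TKO, where 10.5% were. In both cases the gene was Zscan4b, lower by -1.82 ± 0.44 in DNMT TKO (adjusted p = 0.00373) and by -1.60 ± 0.47 in TET TKO (adjusted p = 0.0215). The second call was lost without TET TKO shEmpty replicate 1 (adjusted p = 0.0628) or replicate 2 (0.156) and without WT shEmpty replicate 2 (0.0809) or replicate 3 (0.0570). Both comparisons use the same 3 WT libraries. The remaining differences ran from -1.18 (Dux) to 0.07 (Zfp352) in DNMT TKO and from -1.33 (Zscan4c) to -0.52 (Zscan4f) in TET TKO, and none passed the threshold. In TET TKO, Zscan4d, at -1.22 with an adjusted p of 0.0571, was called without DNMT TKO shEmpty replicate 1, DNMT TKO shKap1 replicate 2 or WT shEmpty replicate 1 (adjusted p = 0.0215, 0.0244 and 0.0348).

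The levels of the members can be compared only per length. Per kb of exon the order in WT shKap1 was Zscan4d (45.8 CPM per kb), Zscan4c (26.7), Zscan4b (20.6), Zscan4f (11.4), Zfp352 (4.26) and Dux (1.57), and the ranges of neighbouring members did not overlap. The order was the same in TET TKO shKap1. In DNMT TKO shKap1 neighbouring ranges overlapped except for those of Zfp352 and Dux, which was the lowest member in every group. When the length was replaced by the number of start positions that occur once in the genome, the order of the Zscan4 genes in WT shKap1 was turned around: Zscan4f had 226 CPM per 1000 positions, Zscan4b 151, Zscan4c 109 and Zscan4d 78.8, with Zfp352 at 4.69 and Dux at 2.68. This measure sets all counted reads, those across junctions included, over positions inside exons alone. The order of the Zscan4 copies thus changed with the treatment of the shared sequence, and Zfp352 and Dux stayed below them.

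MERVL was measured in the same libraries as the reads over 1541 integrants with an internal part. It had 164, 245 and 267 CPM in WT shEmpty and 2004, 2541 and 2521 CPM in WT shKap1, 119 to 332 CPM and 1276 to 2320 CPM in DNMT TKO, and 190 and 196 CPM and then 6586 and 6748 CPM in TET TKO. It rose 10.4-fold, 6.89-fold and 34.5-fold, and solitary MT2_Mm, with 1129 integrants, rose 5.67-fold, 4.17-fold and 17.9-fold (all adjusted p at or below 8.05e-05 over repeat families). With only the integrants that overlap no gene, the log2 changes of MT2_Mm were larger, at 3.27 in WT, 2.70 in DNMT TKO and 4.88 in TET TKO. As for the Zscan4 genes, the fold was smallest in DNMT TKO and largest in TET TKO. The smaller rise in DNMT TKO than in WT passed the edgeR test for none of these sums. The difference was -0.60 for MERVL (adjusted p = 0.516), -0.44 for MT2_Mm (adjusted p = 0.522) and -0.82 for the Zscan4 sum (adjusted p = 0.355). The larger rise in TET TKO than in WT was called for MT2_Mm (1.66 ± 0.41, adjusted p = 0.0234) and not for MERVL (1.72 ± 0.56, adjusted p = 0.0686), which was called when the replicate number was fitted as a block (1.70, adjusted p = 0.0377) or when DNMT TKO shEmpty replicate 1 was left out (adjusted p = 0.0120). The call of MT2_Mm was lost without any 1 of the 4 TET TKO libraries, WT shEmpty replicate 2 or 3, or WT shKap1 replicate 1 (adjusted p = 0.0520 to 0.0725).

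Library by library, the members followed MERVL to differing degrees within each hairpin, and Zscan4b in shEmpty hardly did. Over the 8 shKap1 libraries Pearson's r of log2 CPM with MERVL was 0.87 for Dux, 0.98 for Zfp352 and 0.94 for the summed Zscan4 genes, and without the 2 TET TKO libraries it was 0.54, 0.86 and 0.89. Over the 8 shEmpty libraries it was 0.64, 0.87 and 0.80. The lowest value was that of Zscan4b in shEmpty (0.19), whose levels there followed the genotype. These are descriptions: the points share genotype and depth, the replicate 1 libraries of WT and DNMT TKO are low in both measures, and Dux rests on 1 to 11 reads in each shEmpty library. The shKap1 ranges of Dux overlapped between WT and DNMT TKO, while the summed Zscan4 genes had 206 to 226 CPM in WT and 52.7 to 123 CPM in DNMT TKO.

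**Figure D4:**
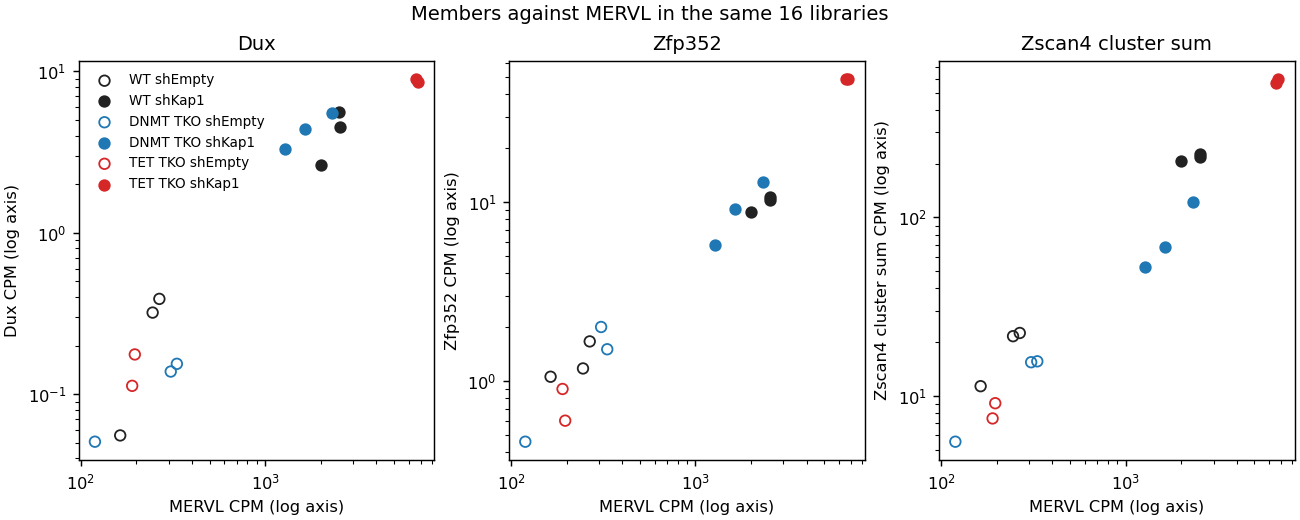
Level of Dux, Zfp352 and the summed reads of Zscan4b, Zscan4c, Zscan4d and Zscan4f against that of MERVL in the same 16 libraries (CPM, log axes), open for shEmpty and filled for shKap1, by genotype. The 8 filled points, from 1276 MERVL CPM up, lie above and to the right of the 8 open points in each panel, and the 2 red filled points are at the top right.

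The genes whose levels were most like those of the members over the 16 libraries were sought among 16637 other genes with at least 100 reads. For Dux the 5 largest Pearson r were those of Mecom, which encodes a zinc finger transcription factor (0.996), Arg2, a mitochondrial arginase (0.988), Ctf2 (0.988), Scamp1, a membrane protein of secretory carriers (0.987) and Gm10807 of its own array (0.987). For Zfp352 they were Gm5662 (0.990), Gm14742 (0.987), Sva (0.985), Ankrd22 (0.984) and Gm13119 (0.980). For the Zscan4 sum they were Zscan4e (0.997), Dub2a and Usp17l5 of the ubiquitin protease families (0.995 and 0.993), Gm12794 of the PRAME family (0.994) and Tdpoz3, which encodes a BTB domain protein (0.993). The 2 hairpins form separate clusters of libraries, so that these values are descriptions of both groups together. By Spearman's rho the lists of 5 kept 2 of these genes for Dux (Mecom and Scamp1), 2 for Zfp352 (Gm5662 and Gm13119) and 3 for the Zscan4 sum (Zscan4e, Gm12794 and Usp17l5). Of the genes named by Pearson's r, Arg2, Gm5662, Zscan4e, Gm12794 and Tdpoz3 are on the list of 40 genes of the 2-cell stage used next. The other symbols are not on it, but genes were matched by symbol alone, so that one listed under another symbol would be missed. That list was chosen with earlier results of these data known.

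Most tested genes of a list of the 2-cell stage rose on knockdown. Of 40 listed genes 27 were found by symbol and 24 passed the filter on low counts. A gene silent in shEmpty can pass this filter by its shKap1 reads alone. The 24 include Zscan4e, a close copy of the members, and the list was chosen with earlier results known, so the counts are a description. Of the 24, 18 were called higher in WT, 17 in DNMT TKO and 19 in TET TKO, with 0, 2 and 1 called lower. Of all genes, 10.8%, 10.1% and 8.05% were called higher. The median log2 fold changes of the 24 were 3.14, 3.16 and 5.80, beside -0.01, 0.02 and -0.01 over all genes. For the difference between TET TKO and WT, 7 of 24 were called higher and none lower, beside 2.08% of all genes called higher, with a median of 1.85 beside 0.02. The called genes with the most reads were Cml2, Gm5662, Gm12794 and BC080695. Cml2 rose 210-fold in WT, 70.6-fold in DNMT TKO and 227-fold in TET TKO and did not pass the test of the difference between TET TKO and WT (0.11 ± 0.57, adjusted p = 0.954). Gm12794 rose 13.4-fold, 10.1-fold and 71.7-fold.

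Of 22 genes known to act on Dux or on the entry into the 2-cell-like state, 21 were tested and 3 were called in any of the 7 comparisons, Trim28 itself, Tbx3 and Dppa2, while 36.2% of all genes were called in at least 1 of them. Tbx3, a T-box factor of naive mESC, fell in WT (-2.04 ± 0.08, adjusted p = 2.74e-12) and in TET TKO (-1.37 ± 0.10, adjusted p = 8.72e-09). Dppa2, which encodes an activator of Dux, rose 2.29-fold in DNMT TKO (adjusted p = 1.43e-05) and 2.96-fold in TET TKO (adjusted p = 9.32e-06). In WT it rose 1.50-fold (adjusted p = 0.00278), under the 2-fold threshold. Its means in WT, DNMT TKO and TET TKO were 86.5, 65.6 and 51.3 CPM in shEmpty and 130, 151 and 152 CPM in shKap1. The median change of the 21 genes was -0.16, -0.23 and -0.01 in WT, DNMT TKO and TET TKO.

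The deposited regions of KAP1, H3K9me3, H3K4me3 and H3K27me3 set the loci apart. The titles of the H3K4me3 and H3K27me3 samples name no genotype or hairpin, and the paper lists its KAP1 and H3K9me3 data as published before. The regions are not split by genotype, so nothing is said of these marks in DNMT TKO or TET TKO. A KAP1 peak at chr10:57686363-57690095 covered 2092 of the 3408 bases of Dux, and a second lay 5056 bases from it. A KAP1-dependent H3K9me3 interval at chr10:57683401-57698199 covered the whole gene, and a second such region lay at chr10:57699601-57702599, 11147 bases from Dux. H3K27me3 regions of both replicates covered the whole gene too. Zscan4b had 4 KAP1 peaks and 2 KAP1-dependent H3K9me3 regions within 20 kb, the nearest of them 3802 bases away, Zscan4d had 1 of each, and Zscan4f 1 H3K9me3 region. None of these overlapped a Zscan4 gene, and no H3K27me3 region was found there. Around Zfp352 and Zscan4c no region of any kind was listed within 20 kb, and no member had an H3K4me3 region within that distance. With a window of 50 kb all 6 members had a KAP1 peak. Of all 37991 genes, 34.3% had a KAP1 peak within 20 kb and 56.0% within 50 kb, 21.0% had a KAP1-dependent H3K9me3 region within 20 kb and 62.5% an H3K4me3 region of replicate 1. A KAP1 peak overlapped 10.4% of genes, a KAP1-dependent H3K9me3 region 5.77% and an H3K27me3 region of replicate 1 22.5%.

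Read density over the Dux array was high even without enrichment. Over its KAP1 peak the hMeDIP input library of WT shEmpty had 214 reads per kb, 11.5 times the median of the 26553 KAP1 regions, and over its H3K9me3 interval 154 reads per kb, 8.29 times the median of that set. The Zscan4 regions lay between 0.774 and 1.69 times the medians. The part of this density in the marks listed at Dux was not tested. The level of 5-hydroxymethylcytosine (5hmC) was given as the share of 5hmC reads of the region set over the share of input reads, from 1 replicate and so without error. In shEmpty it was 1.45 over the Dux peak, with a median of 0.791 over the 7274 KAP1 regions with at least 20 input reads, and 1.78 over the H3K9me3 interval of Dux. The second H3K9me3 region near Dux, 11147 bases away, had 1.49. The ratio was 0.458 and 0.717 in the 2 H3K9me3 regions near Zscan4b, 0.829 in that near Zscan4d and 0.579 in that near Zscan4f, with a median of 0.877 over the H3K9me3 set. These Zscan4 regions had 110, 18, 23 and 34 input reads in that order, beside 2276 in the H3K9me3 interval of Dux. The second KAP1 peak near Dux had a ratio of 1.71. The 4 KAP1 peaks near Zscan4b had 0.788, 0.0445, 0.256 and 0.658, and that near Zscan4d 0.853. These Zscan4 peaks had 39, 23, 32, 21 and 12 input reads in that order. Such a ratio gives the place of a region within its set and not its absolute level. In shKap1 the ratio was 1.30 over the Dux peak, where the median of the KAP1 set was 0.923, and 1.38 over the H3K9me3 interval of Dux. The second H3K9me3 region near Dux had 0.897 in shKap1. In the 2 H3K9me3 regions near Zscan4b the ratio was 0.939 and 0.673, in that near Zscan4d 1.41 and in that near Zscan4f 1.18, with a median of 0.941 over the H3K9me3 set. Over the KAP1 peaks it was 1.35 for the second near Dux. Near Zscan4b it was 1.26, 0.318, 0.157 and 0.496 in the order above, and near Zscan4d 1.415. With the reads of the KAP1-independent H3K9me3 regions as the scale, an alternative added after the data were seen, all regions of a set move by a common factor and the Dux peak had 1.04 in shEmpty and 2.78 in shKap1. No change of absolute 5hmC between the hairpins is therefore given for these genes. A second replicate was left out because its sample titles and file names disagree on which libraries are input and which 5hmC.

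**Figure D5:**
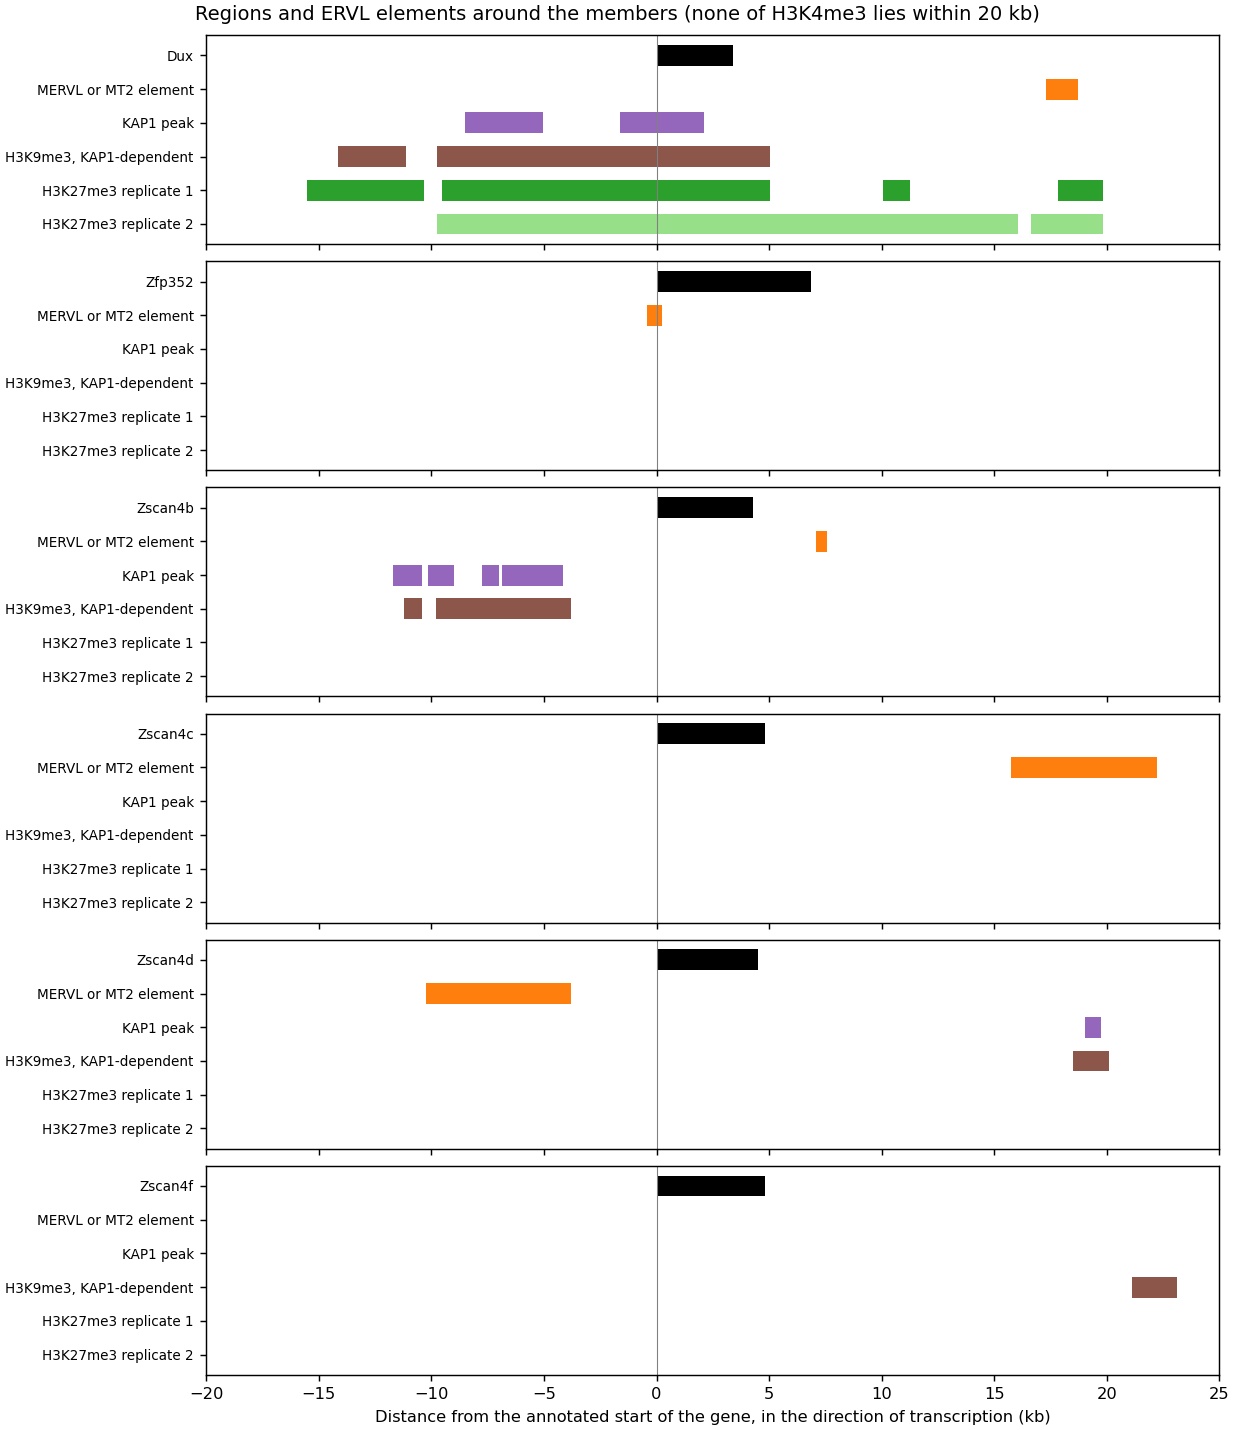
Regions listed within 20 kb of each member, by distance from the annotated start in the direction of transcription (kb), with the gene in black, MERVL or MT2 elements in orange, KAP1 peaks in purple, KAP1-dependent H3K9me3 regions in brown and H3K27me3 regions of the 2 replicates in green. Dux alone is covered by KAP1, H3K9me3 and H3K27me3 regions, while the start of Zfp352 lies in an LTR element.

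Full MERVL elements stood near Zscan4c and Zscan4d. The element of 6477 bases near Zscan4c lies 10940 bases beyond the 3′ end of the gene. It had 80 reads in WT shEmpty and 971 in WT shKap1, and 41 and 2279 in TET TKO, summed over the libraries of the group. The element of 6438 bases near Zscan4d lies 3799 bases upstream of the gene, on the opposite strand. It had 134 and 1703 reads in WT and 50 and 2496 in TET TKO. Each of these elements held the letters GATTNAATC at 2 places and the longer form at none. Of 1513 elements with an internal part, 54.9% held the shorter form, against 4.16% of shifted windows, and 1 held the longer form. The solitary MT2_Mm near Zscan4b, shown above, had 4 and 11 reads in WT and 0 and 22 in TET TKO.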

How the data were processed

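RNA-seq of 16 libraries was used as read counts deposited by the authors, who aligned single-end 100-base reads to mm9 with HISAT2, kept uniquely mapped reads and counted stranded exonic reads per gene with featureCounts and reads per repeat integrant with bedtools. Genes whose counts added up to 16 or more were fitted with edgeR 4.0.16 (quasi-likelihood, TMM, 6 groups in 1 model), with Benjamini-Hochberg adjustment over all genes. Repeat families were fitted with the same scaling. A call needs an adjusted p under 0.05 and at least a 2-fold change. Steps were tested on simulated data. Peak lists hold a score per region, deposited by the authors as their peak caller wrote it, and hMeDIP read counts per region, deposited by the authors, were used for 1 replicate, since titles and file names of the second disagree. Lists of regions, sequences and letters were read from mm9 and RefSeq tables.

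The members and gene lists were chosen with earlier results of these data known. Named genes are the members, their copies, the 5 most alike genes and the 4 called genes of each list with the most reads. Libraries are called independent experiments by the study, each genotype is 1 line, and p-values measure only the spread between such libraries. Deviations of libraries with the same replicate number correlated in WT (0.274, 0.118 and 0.121 over all genes) and, in DNMT TKO, at 0.330, 0.174 and 0.0781. Between WT shEmpty and DNMT TKO shEmpty the values were 0.317, 0.135 and 0.148. In TET TKO, shEmpty and shKap1 gave -0.00372 for either number. A fit with the number as a block was an alternative, as were other filters, scalings, limma-voom 3.58.1, DESeq2 1.42.0, the groups of the contrast alone and leaving out each library. Tracks and columns not needed for these genes were not used here.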

Additional observations from a re-analysis of the deposited data

Results flagged for a closer look

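Some features rose further on Kap1 knockdown in TET TKO than in WT by the test of the difference itself. On the log2 scale the difference was 3.11 for Zfp352, 2.86 for Zscan4b, 2.64 for Zscan4c and 2.78 for Zscan4d. For summed reads it was 2.60 for the 4 Zscan4 genes, 2.13 for the Dux array and 1.66 for solitary MT2_Mm. Within the Dux array only Gm10807 passed by itself, and Dux did not. The fall of Trim28 in these genotypes differed by -0.06 (adjusted p = 0.928). The difference of Zscan4c missed the threshold with no filter on low counts and without any of 11 single libraries, and those of the Zscan4 sum and MT2_Mm without any of 7. No test for an outlying sample was run on groups of 2 or 3 libraries.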

How the results depend on the processing

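All calls on Kap1 knockdown, 237 alternative values in each genotype, kept their direction and their side of the threshold. The differences between genotypes moved more. For TET TKO against WT, the rise of MERVL passed the threshold with limma-voom (1.72), DESeq2 (1.72), the replicate block (1.70), only the groups of the contrast (1.73) and the replicate 1 libraries of WT and DNMT TKO left out (1.80), and ran from 1.58 to 1.91 with single libraries left out. In the same way the Zscan4 sum ran from 2.44 to 2.83 and MT2_Mm from 1.52 to 1.83. The replicate block changed no call of a member. Members called lower in TET TKO shEmpty numbered 0 with no filter, 2 with filterByExpr or DESeq2, 3 with only the groups of the contrast or the replicate 1 libraries left out, and 0 to 2 with single libraries left out, and the Zscan4 sum was then called with DESeq2 (-1.16), the groups of the contrast (-1.17) and the replicate 1 libraries left out (-1.40). For DNMT TKO against WT, 0 to 2 members were called with single libraries left out. Shares of all genes called were counted for the main fit alone, in either direction. They were 10.5% for TET TKO against WT in shEmpty and 7.14% for the knockdown effect of DNMT TKO against WT. In the latter comparison the direction turned for values that passed no test: Zscan4b was 0.0855 with the replicate 1 libraries left out, and Zfp352 ran from -0.55 to 0.26. In shEmpty, Zfp352 was -0.11 with limma-voom and ran from -0.35 to 0.43, Zscan4f from -0.53 to 0.0712, MERVL from -0.0771 to 0.53 and MT2_Mm from -0.0243 to 0.35. Apart from single libraries and constructions that change the number of samples or genes, the cause was not tested. Levels in WT shKap1 per 1000 positions that occur once were 2.68 (Dux), 4.69 (Zfp352), 151 (Zscan4b), 109 (Zscan4c), 78.8 (Zscan4d) and 226 (Zscan4f). Spearman's rho of Zfp352 and MERVL in shKap1 was 0.881, and 50 kb windows gave 6 members with a KAP1 region and 1 with an H3K4me3 region. Of all genes, 56.0% had a KAP1 region and 74.2% an H3K4me3 region of replicate 1 in such windows. Depth limits Dux most, with 1 to 11 reads in each shEmpty library.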
